A study of Mus musculus with 8 samples.

Results

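The genes described here encode proteins that make ribosomes: RNA polymerase I and its factors, the proteins of small nucleolar ribonucleoproteins (snoRNPs), and nucleolar factors that process and assemble the small and the large ribosomal subunit. They were chosen by name as a list of 44 genes, with no measured value in the rule, and 43 of them matched a gene symbol among the 34199 genes counted. The unmatched gene, Noc2l, was not analysed here. By role the 44 genes were 5 of RNA polymerase I transcription, 3 of box C/D snoRNPs, 4 of box H/ACA snoRNPs, 5 nucleolar organisers, 15 of small subunit processing and 12 of large subunit processing, of which 11 were measured.

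Ribosome production starts in the nucleolus, where RNA polymerase I copies the ribosomal DNA into a long precursor RNA. Box C/D snoRNPs methylate this precursor and box H/ACA snoRNPs turn selected uridines into pseudouridines, while processing factors cut and fold it as ribosomal proteins join. Many of these genes are known targets of MYC, which acts with MAX at E-box sequences, and growing progenitors make more ribosomes than mature neutrophils.

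The cells were iGMPs, mouse granulocyte-macrophage progenitors of the C57Bl/6 strain held in self-renewal by HOXA9 fused to the estrogen receptor ligand-binding domain, which is active only with estradiol. All 8 libraries came from such Lys-GFP-ER-HoxA9 cells, with 2 libraries per group. Uninduced cells were grown with 150 ng/ml estradiol and taken at 0 h. In CAF-1 OFF cells, 500 µM IPTG for 48 h switched on a short hairpin RNA against Chaf1b, a subunit of the histone chaperone CAF-1, with estradiol kept. IPTG control cells received IPTG for 48 h with 150 ng/ml estradiol kept. Their labels give neither the IPTG concentration nor whether a control hairpin was present. HOXA9 OFF cells were washed free of estradiol and cultured without it for 48 h. The study derived its hairpin lines as clones from transduced bone marrow, so each is a selected line with a transgene. The study describes RNA-seq of independent sub-clones, but the labels do not say which sub-clone or culture the libraries numbered 1 and 2 came from, so the tests measure only the spread between these libraries.

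Counts assigned to genes ranged from 14044284 to 22423837 per library, and the smallest count of any of the 43 genes in any library was 161. Chaf1b stood at 96.8 and 100.3 (uninduced), 95.1 and 102 (IPTG control), 18.7 and 9.72 (CAF-1 OFF) and 48.3 and 41.01 CPM (HOXA9 OFF). It was lowest in the cells with the hairpin against it (log2 fold change -2.79 ± 0.27 (SE), FDR 0.00236 in CAF-1 OFF against uninduced), and it was also lower in HOXA9 OFF (log2 fold change -1.14 ± 0.25 (SE), FDR 0.00574). IPTG control 1 stood apart: 14.6% of its uniquely aligned reads lay outside genes, against 5.30 to 7.79% in the other libraries, and annotated rRNA genes reached 68.7 CPM there against 2.35 to 7.05 CPM elsewhere. Progenitor genes were present throughout, with a sum over 8 markers of 5979 to 16305 CPM. Levels are given in CPM, the count of a gene over the TMM-scaled size of its library. In bulk RNA of this kind, fewer cells of a type and less RNA per cell cannot be told apart.

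In uninduced cells the levels of the ribosome biogenesis genes, per kilobase of exon, ran from 10.9 CPM per kb for Polr1e to 412 CPM per kb for Npm1, with a median of 60.0 CPM per kb. Npm1 and Ncl, which encode nucleophosmin and nucleolin, led the list. The highest of each role were Ubtf at 51.1 CPM per kb for RNA polymerase I transcription, Nop58 at 177 CPM per kb for box C/D snoRNPs, Nhp2 at 166 CPM per kb for box H/ACA snoRNPs, Npm1 for the nucleolar organisers, Emg1 at 140 CPM per kb for the small subunit and Gnl3 at 129 CPM per kb for the large subunit. The genes lie on 18 chromosomes, and positions given with a gene are the whole span of a protein-coding gene, whose exons were counted. Fbl, at 16.5 CPM per kb, was low for a core snoRNP protein, and only 15.6% of the 50-base windows of its transcripts matched no other place in the mm9 genome. Its count may leave out reads from the other windows, because a read with several alignments went to no gene. How its reads aligned was not examined. The share of unique windows was also under 90% for Ddx18 (31.96%), Npm1 (51.5%), Nop56 (59.6%), Pes1 (78.8%), Rrs1 (87.0%), Imp3 (87.9%) and Wdr12 (89.7%). By contrast, 19 of the 43 genes had no shared window.

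Together the 43 genes took 1.18 and 1.22% of gene counts in uninduced cells and 1.15 and 1.22% in IPTG control. They took 0.937 and 0.891% in CAF-1 OFF and 0.343 and 0.333% in HOXA9 OFF cells. The libraries of these groups did not overlap with those of uninduced or IPTG control cells. As means, the share fell from 1.20% ± 0.02 (SD, n = 2) to 0.914% ± 0.033 in CAF-1 OFF, which is 1.31-fold lower, and to 0.338% ± 0.007 in HOXA9 OFF, which is 3.54-fold lower. Ncl alone held 19.01 to 23.7% of the counts of the 43 genes, and without it the folds were 1.37 and 3.54.

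**Figure D1:**
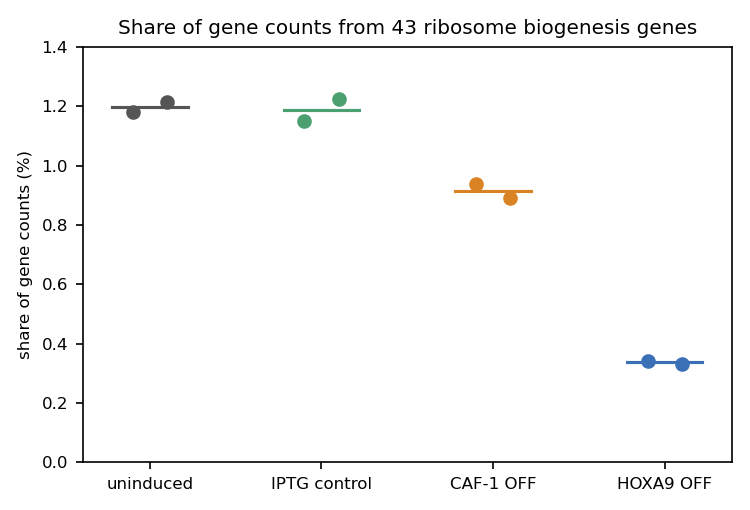
Share of all gene counts (%, axis from 0) that came from the 43 ribosome biogenesis genes in each of the 8 libraries; points are libraries and lines are the means of 2. Uninduced and IPTG control libraries lie between 1.15 and 1.22%, CAF-1 OFF libraries at 0.937 and 0.891%, and HOXA9 OFF libraries at 0.343 and 0.333%.

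After 48 h without HOXA9 activity, 42 of the 43 genes were called lower than in uninduced cells and none higher. A call was an FDR (Benjamini-Hochberg adjusted p of edgeR's quasi-likelihood test over the 13080 genes tested) under 0.05 with a change of at least 1.5-fold. Over all genes tested, 22.1% were called lower and 25.2% higher. The median log2 fold change of the 43 genes was -1.62, beside 0.01 for all tested genes, and it ran from -2.52 for Polr1b to -0.57 for Ltv1. In all 43 genes both HOXA9 OFF libraries lay below both uninduced libraries, which held for 38.9% of all genes tested. Against IPTG control, the same 42 genes were called lower, with 21.8% of all genes called lower and 24.6% higher. With libraries scaled by total count only, the median of all tested genes moved to -0.18 and the median of the 43 genes to -1.81; the calls over all genes then split into 2715 higher and 3701 lower, against 3293 and 2886 under TMM scaling. The same scaling against IPTG control gave 2647 higher and 3684 lower, against 3222 and 2856.

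**Figure D2:**
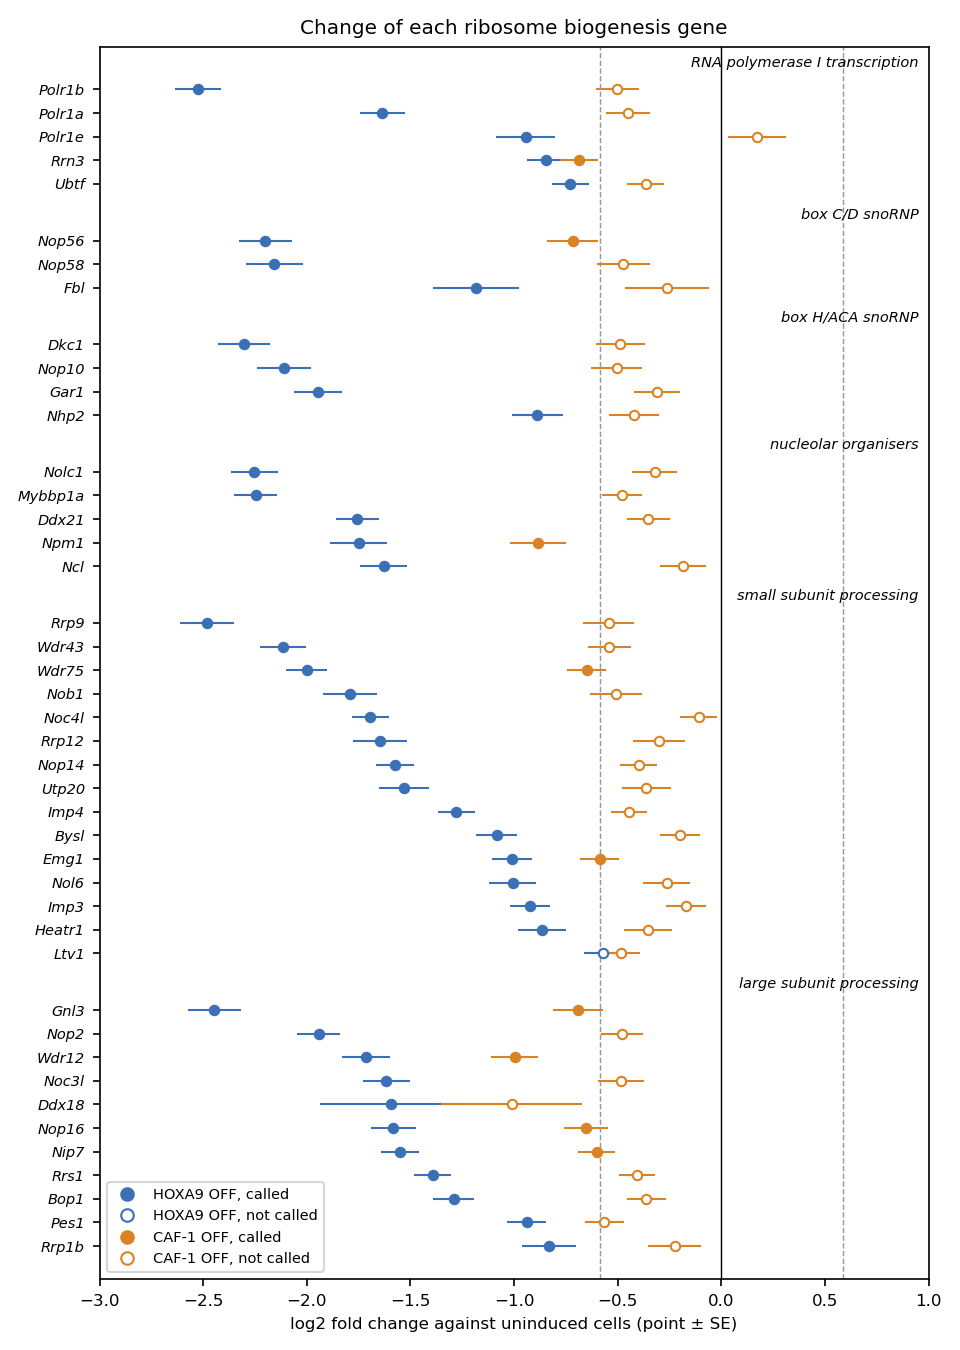
Log2 fold change against uninduced cells of each of the 43 genes, grouped by role, in HOXA9 OFF (blue) and CAF-1 OFF (orange); bars are SE, filled points are called (FDR under 0.05 and at least 1.5-fold) and dashed lines mark 1.5-fold. All blue points lie left of 0, from -2.52 (Polr1b) to -0.57 (Ltv1), and all orange points but Polr1e (0.17) lie left of 0.

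The fall after HOXA9 inactivation came with markers of maturation. All 10 neutrophil maturation markers rose (25.2% of all genes were called higher and 22.1% lower), among them Ltf (lactoferrin; log2 fold change 11.64 ± 0.37 (SE), FDR 8.53e-06) and S100a9 (log2 fold change 10.67 ± 0.47 (SE), FDR 1.19e-05), and their summed level went from 143 to 156 CPM in uninduced to 7852 to 11360 CPM in HOXA9 OFF libraries. Of 11 proliferation markers 8 fell (72.7%), among them the replication helicase genes Mcm7 (log2 fold change -1.12 ± 0.16 (SE), FDR 0.00075) and Mcm2 (log2 fold change -1.09 ± 0.14 (SE), FDR 0.000439), and the sum went from 4978 to 5605 CPM to 2736 to 3856 CPM. Of 8 progenitor markers 4 fell (50%) and 1 rose (12.5%, below the share of all genes). Flt3, a cytokine receptor gene (log2 fold change -5.68 ± 0.57 (SE), FDR 0.000115), and Cd34 (log2 fold change -2.86 ± 0.16 (SE), FDR 1.67e-05) were the lowest of these, and Ms4a3 rose (log2 fold change 1.19 ± 0.31 (SE), FDR 0.0117). Summed levels of 8 lymphoid and erythroid markers were 3.32 to 4.72 CPM in uninduced and IPTG control, 21.1 to 22.6 CPM in CAF-1 OFF and 6.29 to 9.87 CPM in HOXA9 OFF libraries, with 3 to 6 of the 8 genes at 0 in each library. The part of maturation or of slower division in the fall of the ribosome biogenesis genes was not tested.

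Among the 5 genes of RNA polymerase I transcription, all fell in HOXA9 OFF cells, with a median log2 fold change of -0.94. Polr1b, a catalytic core subunit gene (mm9 chr2:128926731-128952330, plus strand), stood at 118 and 124 (uninduced), 109.6 and 118 (IPTG control), 90.6 and 79.7 (CAF-1 OFF) and 21.6 and 20.3 CPM (HOXA9 OFF). It had the lowest fold change of all 43 genes (log2 fold change -2.52 ± 0.11 (SE), FDR 1.19e-05). Ubtf, whose product UBF binds the ribosomal DNA (mm9 chr11:102165874-102181056, minus strand), stood at 333 and 336 (uninduced), 334 and 346 (IPTG control), 269 and 251 (CAF-1 OFF) and 206 and 198 CPM (HOXA9 OFF). It changed least of this role (log2 fold change -0.73 ± 0.09 (SE), FDR 0.000322). Rrn3, which joins the polymerase to its promoter factors (mm9 chr16:13780792-13814933, plus strand), stood at 152 and 165 (uninduced), 148 and 144 (IPTG control), 103 and 94.3 (CAF-1 OFF) and 87.7 and 89.02 CPM (HOXA9 OFF). Its HOXA9 OFF fall (log2 fold change -0.85 ± 0.09 (SE), FDR 0.000188) was close in size to its CAF-1 OFF fall (log2 fold change -0.69 ± 0.09 (SE), FDR 0.00586).

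The polymerase subunits did not move by equal amounts. Within a library the ratio of Polr1b to Polr1a counts, which does not depend on library scaling, was 0.938 and 0.867 in uninduced, 0.878 and 0.864 in IPTG control, 0.925 and 0.811 in CAF-1 OFF and 0.523 and 0.453 in HOXA9 OFF cells. Both HOXA9 OFF libraries thus held the lowest ratios. The ratio of Polr1b to Polr1e was 2.59 and 3.14 in uninduced, 2.89 and 2.58 in IPTG control, 1.95 and 1.63 in CAF-1 OFF and 0.921 and 0.986 in HOXA9 OFF cells. Polr1e, a peripheral subunit gene named after its values were seen, stood at 45.4 and 39.4 (uninduced), 37.9 and 45.5 (IPTG control), 46.6 and 48.9 (CAF-1 OFF) and 23.4 and 20.6 CPM (HOXA9 OFF). It was the only one of the 43 genes with a CAF-1 OFF estimate above 0 (log2 fold change 0.17 ± 0.14 (SE), FDR 0.408, not called).

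The promoters of these genes were read for the E-box letters CACGTG, a palindrome that reads alike on both strands. RefSeq windows of 300 bases, 250 before and 50 after an annotated start, were found for 37 of the 43 genes (build GRCm38.p6), with none for Bop1, Fbl, Npm1, Rrp12, Rrs1 and Nol6. The letters were found in 8 of the 37 genes (21.6%), beside 8.09% of the 27025 genes with such a window, 10.9% of 55 ribosomal protein genes and 19.8% of 81 other polymerase I and subunit factors. The genes were Rrn3, Nop2, Pes1, Utp20, Wdr43, Ltv1, Mybbp1a and Imp4. Shown are Rrn3 (chr16:13780449-13780748, plus strand), which holds the letters at 2 places and fell in both treated groups, Nop2 (chr6:125131633-125131932, plus strand), which holds them once, and Polr1b (chr2:129100746-129101045, plus strand), which fell most in HOXA9 OFF and holds none; capitals mark CACGTG.
Rrn3: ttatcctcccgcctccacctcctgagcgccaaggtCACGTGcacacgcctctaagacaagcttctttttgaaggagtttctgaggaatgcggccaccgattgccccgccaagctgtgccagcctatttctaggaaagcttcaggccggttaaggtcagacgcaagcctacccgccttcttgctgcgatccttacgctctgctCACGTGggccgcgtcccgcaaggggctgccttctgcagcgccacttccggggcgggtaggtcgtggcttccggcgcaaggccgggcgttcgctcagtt
Nop2: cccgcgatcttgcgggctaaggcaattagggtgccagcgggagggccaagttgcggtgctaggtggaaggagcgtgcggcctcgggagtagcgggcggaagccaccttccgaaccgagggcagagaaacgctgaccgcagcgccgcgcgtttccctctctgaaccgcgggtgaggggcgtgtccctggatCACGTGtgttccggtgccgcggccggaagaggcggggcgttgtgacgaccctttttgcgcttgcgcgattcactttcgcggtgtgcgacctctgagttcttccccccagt
Polr1b: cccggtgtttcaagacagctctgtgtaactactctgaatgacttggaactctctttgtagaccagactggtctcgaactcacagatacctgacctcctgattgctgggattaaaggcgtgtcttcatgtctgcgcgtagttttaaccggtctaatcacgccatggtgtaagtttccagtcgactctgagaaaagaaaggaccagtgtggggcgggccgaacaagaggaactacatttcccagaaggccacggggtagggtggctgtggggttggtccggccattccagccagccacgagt

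The changes of genes with and without these letters covered overlapping ranges, and the difference was not tested. In HOXA9 OFF against uninduced cells the 8 genes with CACGTG had a median log2 fold change of -1.40 and a range of -2.25 to -0.57, and the 29 genes without it a median of -1.64 and a range of -2.52 to -0.73. In CAF-1 OFF the medians were -0.48 and -0.47. A match describes the letters of the reference and no binding was measured here.

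The 3 box C/D genes all fell in HOXA9 OFF cells, with a median log2 fold change of -2.16. Nop56, which with Nop58 forms the scaffold of these particles (mm9 chr2:130100166-130105049, plus strand), stood at 305 and 250.01 (uninduced), 255 and 277 (IPTG control), 177 and 160.1 (CAF-1 OFF) and 62.2 and 58.6 CPM (HOXA9 OFF). It fell most of the role in HOXA9 OFF (log2 fold change -2.20 ± 0.13 (SE), FDR 1.67e-05). Nop58 stood at 470.2 and 445 (uninduced), 459 and 437 (IPTG control), 346 and 313 (CAF-1 OFF) and 115 and 90.8 CPM (HOXA9 OFF). It had a HOXA9 OFF fall close to that of its partner (log2 fold change -2.16 ± 0.14 (SE), FDR 2e-05). Fbl, the methyltransferase fibrillarin (mm9 chr7:28954765-28964288, plus strand), stood at 22.5 and 15.9 (uninduced), 22.04 and 24.5 (IPTG control), 17.3 and 14.7 (CAF-1 OFF) and 8.74 and 8.13 CPM (HOXA9 OFF). It had the smallest fall of the 3 (log2 fold change -1.18 ± 0.21 (SE), FDR 0.00186). Its uninduced and CAF-1 OFF libraries overlapped, and few of its windows were unique, as given above. Nop56 holds 4 annotated snoRNA genes within its span, and 5.90% of its exon bases overlap another gene on the same strand.

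Of the 4 box H/ACA genes, Dkc1, the pseudouridine synthase dyskerin (mm9 chrX:72341193-72355116, plus strand), stood at 361 and 362 (uninduced), 356 and 355 (IPTG control), 272 and 244 (CAF-1 OFF) and 80.9 and 65.96 CPM (HOXA9 OFF). Its fall in HOXA9 OFF (log2 fold change -2.30 ± 0.13 (SE), FDR 1.55e-05) was the largest of the role, followed by Nop10 at -2.11 and Gar1 at -1.95. Nhp2, another core protein of the same particle (mm9 chr11:51433237-51437216, plus strand), stood at 206 and 174 (uninduced), 179 and 201 (IPTG control), 144 and 140.4 (CAF-1 OFF) and 95.7 and 110.05 CPM (HOXA9 OFF). It fell less (log2 fold change -0.89 ± 0.12 (SE), FDR 0.000555). The ratio of Dkc1 to Nhp2 counts was 1.75 and 2.08 in uninduced, 1.98 and 1.76 in IPTG control, 1.89 and 1.73 in CAF-1 OFF and 0.846 and 0.599 in HOXA9 OFF libraries. The ratio was thus lowest in both HOXA9 OFF libraries, whereas 1 CAF-1 OFF library lay within and 1 just below the range of the 4 control libraries.

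The 5 nucleolar organisers fell within a narrow range in HOXA9 OFF, from -2.25 to -1.63 on the log2 scale. Nolc1, a phosphoprotein that binds snoRNPs (mm9 chr19:46150353-46160018, plus strand), stood at 592 and 658 (uninduced), 597 and 681 (IPTG control), 495 and 505 (CAF-1 OFF) and 132 and 130.2 CPM (HOXA9 OFF). It had the lowest fold change (log2 fold change -2.25 ± 0.11 (SE), FDR 1.38e-05). Ncl (nucleolin; mm9 chr1:88241294-88256030, minus strand) stood at 2219 and 2395 (uninduced), 2329 and 2453 (IPTG control), 2061 and 2000 (CAF-1 OFF) and 787 and 704 CPM (HOXA9 OFF). It had the fold change nearest to 0 of the role (log2 fold change -1.63 ± 0.11 (SE), FDR 2.79e-05). Npm1 (nucleophosmin; mm9 chr11:33052287-33063206, minus strand) stood at 1140 and 1058 (uninduced), 1096 and 958 (IPTG control), 647 and 544 (CAF-1 OFF) and 347 and 307 CPM (HOXA9 OFF). It fell in HOXA9 OFF (log2 fold change -1.75 ± 0.14 (SE), FDR 4.14e-05) and, unlike the other 4 genes of this role, was also called in CAF-1 OFF. Mybbp1a at -2.25 and the RNA helicase gene Ddx21 at -1.76 completed the role.

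Of 15 small subunit genes, 14 were called lower in HOXA9 OFF, with a median log2 fold change of -1.53. Rrp9, a WD-repeat protein of the snoRNP that starts small subunit processing (mm9 chr9:106378294-106387755, plus strand), stood at 114 and 95.7 (uninduced), 103 and 117 (IPTG control), 73.8 and 69.8 (CAF-1 OFF) and 17.9 and 19.5 CPM (HOXA9 OFF). It fell most (log2 fold change -2.48 ± 0.13 (SE), FDR 1.55e-05). Ltv1, a late assembly factor that leaves the particle shortly before it is mature (mm9 chr10:12898446-12912943, minus strand), stood at 106 and 106 (uninduced), 107 and 103 (IPTG control), 74.7 and 76.95 (CAF-1 OFF) and 68.5 and 73.99 CPM (HOXA9 OFF). Its HOXA9 OFF libraries lay below the uninduced ones, but the estimate was short of 1.5-fold (log2 fold change -0.57 ± 0.09 (SE), FDR 0.00112), and it was the only one of the 43 genes without a call. Wdr75, a protein of the early processome, stood at 133 and 138 (uninduced), 129 and 138 (IPTG control), 90.6 and 81.9 (CAF-1 OFF) and 33.8 and 33.9 CPM (HOXA9 OFF). It fell in HOXA9 OFF (log2 fold change -2.001 ± 0.10 (SE), FDR 1.32e-05). Emg1, a ribosomal RNA methyltransferase, stood at 206 and 189 (uninduced), 189 and 203 (IPTG control), 134 and 128 (CAF-1 OFF) and 94.6 and 101 CPM (HOXA9 OFF), and its fall there was smaller (log2 fold change -1.01 ± 0.10 (SE), FDR 9.03e-05). The other 11 genes ran from -2.12 to -0.86, in the order Wdr43, Nob1, Noc4l, Rrp12, Nop14, Utp20, Imp4, Bysl, Nol6, Imp3 and Heatr1.

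All 11 measured large subunit genes fell in HOXA9 OFF, with a median log2 fold change of -1.58. Gnl3, the nucleolar GTPase nucleostemin (mm9 chr14:31825620-31832275, minus strand), stood at 248 and 238 (uninduced), 225 and 241 (IPTG control), 167 and 134 (CAF-1 OFF) and 42.9 and 46.2 CPM (HOXA9 OFF). It fell most (log2 fold change -2.45 ± 0.13 (SE), FDR 1.49e-05). Rrp1b (mm9 chr17:32173045-32199810, plus strand) stood at 96.4 and 96.1 (uninduced), 101 and 97.04 (IPTG control), 85.96 and 78.7 (CAF-1 OFF) and 60.7 and 47.4 CPM (HOXA9 OFF). It fell least (log2 fold change -0.83 ± 0.13 (SE), FDR 0.00105). Wdr12, Pes1 and Bop1 encode the partners of a single complex required for large subunit maturation. Wdr12 (mm9 chr1:60133712-60155489, minus strand) stood at 181 and 179 (uninduced), 176 and 174 (IPTG control), 97.1 and 83.2 (CAF-1 OFF) and 58.8 and 50.7 CPM (HOXA9 OFF). It fell in HOXA9 OFF (log2 fold change -1.72 ± 0.12 (SE), FDR 2.61e-05), while Bop1 and Pes1 had log2 fold changes of -1.29 and -0.94. The ratio of Wdr12 to Pes1 counts was 0.835 and 0.920 in uninduced, 0.915 and 0.891 in IPTG control, 0.702 and 0.596 in CAF-1 OFF and 0.531 and 0.490 in HOXA9 OFF libraries. It was thus lower in all 4 libraries of the treated groups than in the other 4.

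Nop16 stood at 137 and 116 (uninduced), 128 and 131 (IPTG control), 80.96 and 79.6 (CAF-1 OFF) and 41.3 and 43.00 CPM (HOXA9 OFF). It fell in HOXA9 OFF (log2 fold change -1.58 ± 0.11 (SE), FDR 2.7e-05). Nip7, which binds the large subunit precursor, stood at 137 and 125 (uninduced), 125 and 126 (IPTG control), 85.7 and 86.9 (CAF-1 OFF) and 45.1 and 44.2 CPM (HOXA9 OFF). Its HOXA9 OFF fall was of similar size (log2 fold change -1.55 ± 0.09 (SE), FDR 1.72e-05). Nop2, Noc3l and Rrs1 had log2 fold changes of -1.94, -1.62 and -1.39. Ddx18, an RNA helicase gene named after its values were seen, stood at 134 and 71.3 (uninduced), 118 and 77.6 (IPTG control), 51.6 and 50.2 (CAF-1 OFF) and 41.7 and 26.5 CPM (HOXA9 OFF). It had the widest gap between replicates of the 43 genes in uninduced, IPTG control and HOXA9 OFF cells, with library 1 higher each time, and its SE was the largest (log2 fold change -1.59 ± 0.35 (SE), FDR 0.00527).

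**Figure D3:**
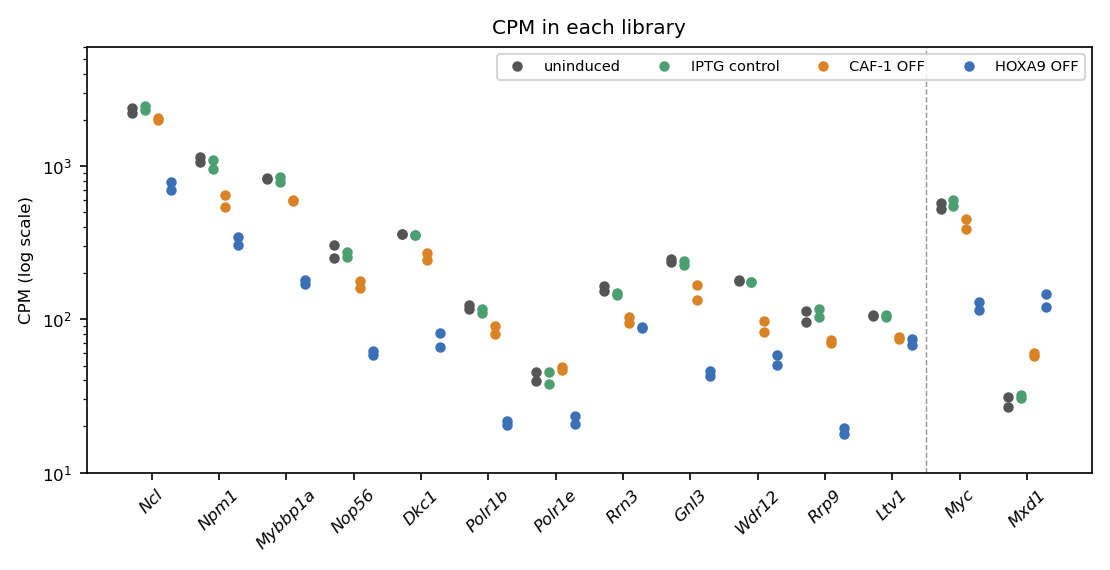
CPM (log axis) of 12 ribosome biogenesis genes and, right of the dashed line, of Myc and Mxd1 in each library, 2 points per group. For Polr1b and Rrp9 the HOXA9 OFF points lie several fold below all others, for Rrn3 and Ltv1 they lie next to the CAF-1 OFF points, and for Mxd1 the order is turned around.

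In CAF-1 OFF cells fewer of these genes passed the test. Of the 43 genes, 9 were called lower and none higher than in uninduced cells, while 3.5% of all tested genes were called lower and 10.5% higher. The median log2 fold change of the 43 was -0.47 (all tested genes 0.01), and 42 of the 43 estimates were below 0. At an FDR under 0.05 with no demand on fold, 29 of the 43 were lower and none higher, beside 8.66% of all genes lower. Both CAF-1 OFF libraries lay below both uninduced libraries in 41 genes (33% of all genes tested), Fbl overlapped and Polr1e lay above. The number called depended on single libraries: it was 2 without uninduced 1, 13 without uninduced 2, 12 without CAF-1 OFF 1 and 1 without CAF-1 OFF 2, and 1 when the test itself was set against 1.5-fold. The number of all genes called lower moved too, from 458 to 19, 296, 438, 20 and 25 under these settings in the same order.

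The gene with the largest called fall in CAF-1 OFF was Wdr12, with per-library values as given above (log2 fold change -0.997 ± 0.11 (SE), FDR 0.00356), and it kept its call under every alternative but an FDR of 0.01 with 2-fold. Npm1 followed (log2 fold change -0.88 ± 0.13 (SE), FDR 0.00753), with CAF-1 OFF libraries at 647 and 544 CPM against 1140 and 1058 CPM. Neither gene's CAF-1 OFF libraries reached the level of an uninduced or IPTG control library. The others were Nop56 (log2 fold change -0.72 ± 0.12 (SE), FDR 0.0106), Gnl3 (log2 fold change -0.69 ± 0.12 (SE), FDR 0.0113) and Rrn3 (log2 fold change -0.69 ± 0.09 (SE), FDR 0.00586). Nop16 (log2 fold change -0.65 ± 0.11 (SE), FDR 0.00919), Wdr75 (log2 fold change -0.65 ± 0.10 (SE), FDR 0.00689), Nip7 (log2 fold change -0.60 ± 0.09 (SE), FDR 0.00723) and Emg1 (log2 fold change -0.59 ± 0.09 (SE), FDR 0.00918) were nearer to the 1.5-fold limit. By role the 9 calls were 4 of 11 large subunit genes, 2 of 15 small subunit genes, 1 of 5 polymerase I genes, 1 of 3 box C/D genes and 1 of 5 nucleolar organisers, with no call among 4 box H/ACA genes. Ddx18 had an estimate as low as Wdr12 but did not pass (log2 fold change -1.01 ± 0.34 (SE), FDR 0.071), given its spread between replicates. Ncl, the most counted of the 43 genes, was not called (log2 fold change -0.18 ± 0.11 (SE), FDR 0.269).

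Against IPTG control, which had the same time in culture, 7 of the 43 genes were called lower and none higher, while 3.2% of all genes were called lower and 9.56% higher. Of these, 6 were also called against uninduced cells (6 of 9 and 6 of 7): Nop56, Npm1, Nop16, Wdr12, Wdr75 and Gnl3. Both comparisons hold the same CAF-1 OFF libraries. The additional gene was Rrp9 (log2 fold change -0.62 ± 0.12 (SE), FDR 0.0181, against log2 fold change -0.54 ± 0.12 (SE), FDR 0.0231 relative to uninduced), and Wdr12 again had the lowest fold change (log2 fold change -0.96 ± 0.11 (SE), FDR 0.00471). Rrn3 (log2 fold change -0.56 ± 0.09 (SE), FDR 0.0112), Nip7 (log2 fold change -0.54 ± 0.09 (SE), FDR 0.0113) and Emg1 (log2 fold change -0.58 ± 0.09 (SE), FDR 0.011) passed the FDR but not the fold. With no demand on fold 26 of the 43 were lower, beside 7.55% of all genes. Both CAF-1 OFF libraries lay below both IPTG control libraries in 42 genes, beside 33.5% of all genes. The number called was 10 without CAF-1 OFF 1, 1 without CAF-1 OFF 2, 2 without IPTG control 1 (the library with many reads outside genes) and 1 without IPTG control 2. Over all genes the lower calls went from 419 to 356, 18, 66 and 39 in the same order.

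In CAF-1 OFF cells 7 of 10 neutrophil maturation markers rose (70%, beside 10.5% of all genes called higher), led by Mmp8 (log2 fold change 4.90 ± 0.37 (SE), FDR 0.00118) and S100a9 (log2 fold change 4.58 ± 0.42 (SE), FDR 0.00224), with sums of 1370 to 2372 CPM against 143 to 156 CPM in uninduced libraries. Mmp8, a neutrophil collagenase gene, was the bulk of this, at 1091 and 1937 CPM. Of 8 progenitor markers 1 was called higher (12.5%), which was Elane (log2 fold change 1.61 ± 0.42 (SE), FDR 0.0334), and none lower; the median of the 8 was 0.15, with 3 estimates below 0. Of 11 proliferation markers 1 was called higher (9.09%), which was Mki67 (log2 fold change 0.65 ± 0.18 (SE), FDR 0.0374), and none lower. The other proliferation markers lay mostly on the other side, with 9 of 11 estimates below 0, a median of -0.18 and sums of 4836 and 4769 CPM against 5605 and 4978 CPM. Against IPTG control none of the 11 was called (Mki67 log2 fold change 0.60 ± 0.18 (SE), FDR 0.0521). Of the 8 lymphoid and erythroid markers 4 passed the filter on low counts and 3 of these 4 rose, among them the B-cell receptor gene Cd79a (log2 fold change 2.82 ± 0.41 (SE), FDR 0.00689), to 15.5 and 15.3 CPM. The part of these marker changes in the CAF-1 OFF values of the ribosome biogenesis genes was not tested.

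IPTG control cells served as the background. None of the 43 genes was called against uninduced cells and 0 of them had an unadjusted p under 0.05 in edgeR's test. The calls over all genes were 0% lower and 0% higher, with 100 of 13080 genes at an unadjusted p under 0.05, and DESeq2 called 5 genes higher, none of the 43. The fit with the replicate number as a block and only these groups called 24 of 12010 genes higher, again none of the 43. The median log2 fold change of the 43 genes was -0.02, between -0.12 for Rrn3 and 0.28 for Fbl.

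**Figure D4:**
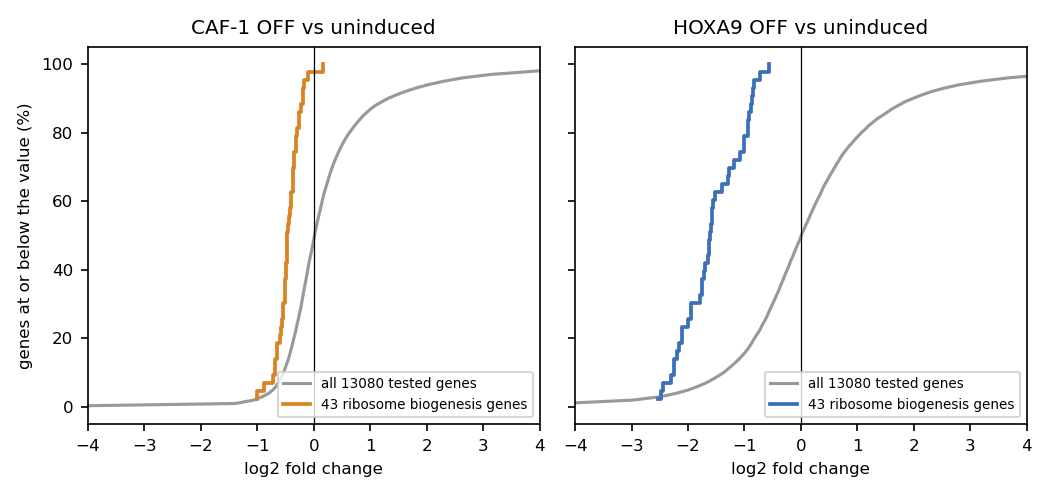
Cumulative distributions of log2 fold change against uninduced cells for the 43 ribosome biogenesis genes (coloured steps) and all 13080 tested genes (grey), in CAF-1 OFF (left) and HOXA9 OFF (right). The steps reach their middle at -0.47 and -1.62, where the grey lines are at 0.01; the horizontal axis is cut at 4 on either side.

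Compared directly, CAF-1 OFF cells held more transcript than HOXA9 OFF cells for 35 of the 43 genes and less for none by the call, with 22.2% of all genes higher and 21.4% lower. The median difference was 1.13 on the log2 scale (all genes 0.04). All 43 estimates were above 0, beside 6760 of the 13080 genes tested. Scaled by total count only, 40 of the 43 were called, and the calls over all genes were 3949 higher and 2064 lower against 2898 and 2797 under TMM scaling. The widest differences were those of Polr1b (log2 fold change 2.02 ± 0.11 (SE), FDR 2.66e-05), Rrp9 (log2 fold change 1.94 ± 0.13 (SE), FDR 4.28e-05) and Nolc1 (log2 fold change 1.93 ± 0.11 (SE), FDR 3.05e-05). The genes without a call were Rrn3, Ubtf, Nhp2, Ddx18, Pes1, Emg1, Heatr1 and Ltv1, of which Ubtf, Nhp2, Pes1, Emg1 and Heatr1 passed the FDR with less than 1.5-fold. For Rrn3 (log2 fold change 0.16 ± 0.09 (SE), FDR 0.185) and Ltv1 (log2 fold change 0.09 ± 0.09 (SE), FDR 0.431) the difference was within about 2 SE of 0, which does not show that the treatments act alike on them.

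Ribosomal protein genes, with whose products these factors work, were called lower at shares near those of all genes, but nearly all of their estimates were below 0. Of 76, 21 were called lower in HOXA9 OFF (27.6%, beside 22.1% of all genes; median log2 fold change -0.45) and 2 in CAF-1 OFF (2.63%, beside 3.5%; median -0.35). None was called higher in either, where 25.2 and 10.5% of all genes were. Estimates were below 0 for 75 of the 76 in HOXA9 OFF and 73 in CAF-1 OFF, beside 6487 and 6369 of the 13080 genes tested. Rpl28 fell in HOXA9 OFF from 14.1 and 14.03 CPM to 2.98 and 2.83 CPM (log2 fold change -2.27 ± 0.21 (SE), FDR 8.26e-05). Rpl23a was also called, at 0.401 and 0.342 CPM in uninduced and 0.109 and 0.0992 CPM in HOXA9 OFF. The HOXA9 OFF values lay below 3 counts, which are 0.146 and 0.135 CPM in those libraries before TMM scaling. In CAF-1 OFF the called genes were Rpl35 (log2 fold change -0.66 ± 0.18 (SE), FDR 0.0382) and Rpl10a (log2 fold change -0.64 ± 0.14 (SE), FDR 0.0191). Against IPTG control they were Rpl35 and Rpl3, while Rpl10a was short of 1.5-fold (log2 fold change -0.53 ± 0.14 (SE), FDR 0.0366). The 76 genes together had a share of gene counts of 3.18 and 2.68% in uninduced, 2.92 and 2.97% in IPTG control, 2.42 and 2.36% in CAF-1 OFF and 2.03 and 1.85% in HOXA9 OFF libraries. Many genes of this family have near-identical copies in the genome, whose shared reads were not assigned, so these levels are uncertain.

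Further assembly factors outside the 43 genes were also mostly called lower in HOXA9 OFF, where 22.1% of all genes were called lower and 25.2% higher. Of 46 other large subunit factors, 37 fell (80.4%) and none rose (median -1.12), among them Ppan (log2 fold change -2.24 ± 0.12 (SE), FDR 1.45e-05) and Nle1 (log2 fold change -2.17 ± 0.14 (SE), FDR 2.03e-05). Of 38 other small subunit factors, 27 fell (71.1%) and 1 rose (median -1.04). Rcl1 (log2 fold change -2.28 ± 0.10 (SE), FDR 1.19e-05) and the acetyltransferase gene Nat10 (log2 fold change -2.09 ± 0.10 (SE), FDR 1.26e-05) were the lowest, and the kinase gene Riok3 rose (log2 fold change 1.08 ± 0.10 (SE), FDR 7.74e-05), from 129 and 129 CPM to 293 and 255 CPM. Of 9 other polymerase I subunits and factors 4 fell (44.4%), with Polr1c (log2 fold change -1.16 ± 0.14 (SE), FDR 0.000282) and Taf1d (log2 fold change -1.14 ± 0.14 (SE), FDR 0.000319) the lowest. Of 13 genes of the RNA exosome, which trims ribosomal RNA precursors, 11 fell (84.6%), with the nuclease gene Dis3 (log2 fold change -1.85 ± 0.12 (SE), FDR 2.42e-05) and Exosc2 (log2 fold change -1.70 ± 0.16 (SE), FDR 8.1e-05) the lowest.

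In CAF-1 OFF the calls were 5 of 46 large subunit factors, 5 of 38 small subunit factors, 0 of 9 polymerase I factors and 3 of 13 exosome genes, all lower. These are shares of 10.9, 13.2, 0 and 23.1%, beside 3.5% of all genes tested. Against IPTG control the calls were 3 of 46 (6.52%), 4 of 38 (10.5%), 0 of 9 and 3 of 13 (23.1%), beside 3.2% of all genes. Against uninduced cells they were led by Nmd3, an export adaptor of the large subunit (log2 fold change -0.78 ± 0.11 (SE), FDR 0.00593), Rsl1d1 (log2 fold change -0.69 ± 0.09 (SE), FDR 0.00563), Utp18 (log2 fold change -0.88 ± 0.12 (SE), FDR 0.00602), Utp14a (log2 fold change -0.74 ± 0.11 (SE), FDR 0.00747) and, of the exosome list, Mphosph6 (log2 fold change -0.60 ± 0.17 (SE), FDR 0.0415) and C1d (log2 fold change -0.86 ± 0.15 (SE), FDR 0.0111). Of these 6 genes Rsl1d1 was short of 1.5-fold against IPTG control (log2 fold change -0.56 ± 0.09 (SE), FDR 0.0108). C1d, an exosome cofactor, stood at 78.6 and 63.02 (uninduced), 75.95 and 65.1 (IPTG control), 41.7 and 36.5 (CAF-1 OFF) and 87.6 and 80.1 CPM (HOXA9 OFF). It was thus lowest in CAF-1 OFF, and its HOXA9 OFF libraries lay above the uninduced ones with no call (log2 fold change 0.24 ± 0.15 (SE), FDR 0.188).

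The 202 annotated snoRNA genes summed to 50.4 and 47.9 CPM in uninduced, 50.9 and 46.4 CPM in IPTG control, 36.1 and 31.99 CPM in CAF-1 OFF and 19.9 and 21.8 CPM in HOXA9 OFF libraries. Neither treated group overlapped with the other libraries. Snora68 held 9.51% of these counts, the largest share of a single gene. The annotation places 18 snoRNA genes within 6 of the 43 ribosome biogenesis genes, and some of these are in the sum, so it is not independent of the 43. Kits for long RNA recover few of these short RNAs, and reads from introns of their host genes can be counted with them, so the sums stand for what was counted and not for snoRNA abundance.

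Of the MYC network, 12 genes were listed and 11 tested. Myc itself stood at 574 and 527 (uninduced), 597 and 549 (IPTG control), 455 and 392 (CAF-1 OFF) and 129.7 and 115 CPM (HOXA9 OFF). It fell in HOXA9 OFF (log2 fold change -2.17 ± 0.13 (SE), FDR 1.67e-05) and was not called in CAF-1 OFF (log2 fold change -0.38 ± 0.12 (SE), FDR 0.0624 against uninduced, log2 fold change -0.44 ± 0.12 (SE), FDR 0.0447 against IPTG control), where both libraries still lay below those of the controls. Mycn stood at 1.20 and 0.898 CPM (uninduced) and had 0 counts in both HOXA9 OFF libraries, which allows up to 0.146 and 0.135 CPM before TMM scaling. In CAF-1 OFF it stood at 7.05 and 1.73 CPM without a call. In HOXA9 OFF 5 of the 11 rose (45.5%, beside 25.2% of all genes) and 2 fell (18.2%, beside 22.1%). Those that rose were Mxd1, Mxd4, Mxi1, Mnt and Mlx, most of which encode partners of MAX or MLX that oppose MYC. Mxd1 stood at 31.2 and 26.9 (uninduced), 32.2 and 30.6 (IPTG control), 60.2 and 57.8 (CAF-1 OFF) and 146 and 121 CPM (HOXA9 OFF) (log2 fold change 2.20 ± 0.13 (SE), FDR 1.88e-05 in HOXA9 OFF), and Mxd4 rose too (log2 fold change 1.32 ± 0.24 (SE), FDR 0.00207). In CAF-1 OFF Mxd1 (log2 fold change 1.02 ± 0.13 (SE), FDR 0.00526) and Mxd3 (log2 fold change 1.12 ± 0.25 (SE), FDR 0.0226) rose against uninduced cells (2 of 11, beside 10.5% of all genes called higher). Against IPTG control Mxd1 was the 1 gene of the 11 called higher, and Mxd3 did not pass (log2 fold change 0.71 ± 0.25 (SE), FDR 0.0882).

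The ratio of Mxd1 to Myc counts within a library was 0.0542 and 0.0511 in uninduced, 0.0539 and 0.0558 in IPTG control, 0.132 and 0.148 in CAF-1 OFF and 1.12 and 1.05 in HOXA9 OFF libraries. CAF-1 OFF libraries lay between the control and the HOXA9 OFF libraries in this ratio, as they did, in the reverse order, in the share of counts held by the 43 genes. Max, the shared partner, was not called in either treated group, and the ratio of Myc to Max counts was 4.69 and 3.97 in uninduced, 3.74 and 3.32 in CAF-1 OFF and 0.932 and 0.883 in HOXA9 OFF libraries. Whether MYC or its antagonists act on the ribosome biogenesis genes in these cells was not tested.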

How the data were processed

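RNA from 8 libraries was sequenced with a directional NEBNext kit, per the study's methods, and an NEB kit, per the labels. The authors used STAR (mm9) for alignment and HTSeq-count for counting, and deposited unnormalized counts of reads by gene symbol. How the counting used strand, the annotation version and how messenger RNA was selected are not given in the sources used here, so overlapping genes are uncertain. HTSeq's summary lines (reads outside genes, ambiguous or with several alignments) were kept apart.

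The 44 genes and all other lists were chosen with earlier results of these data known. Counts were fitted with edgeR 4.0.16 (R 4.3.3): filterByExpr (13080 genes kept), TMM scaling (factors 0.894 to 1.06), 1 quasi-likelihood fit of all 8 libraries by group, glmQLFTest, and Benjamini-Hochberg adjusted p (FDR) across tested genes. The thresholds (FDR 0.05, 1.5-fold) follow the study. The biological coefficient of variation was 18.9%. SE were derived from the F statistic. The limit for 0 reads is 3 counts and covers counting error only. Exon lengths, positions and window uniqueness came from GENCODE genes on mm9, where 33223 of 34199 symbols matched; promoters came from RefSeq (GRCm38.p6).

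All 43 genes were accounted for by role. Values per library were given for Myc, Chaf1b, the highest gene per kilobase and the lowest and highest fold change of each role in HOXA9 OFF, and every CAF-1 OFF call; from each other list up to 2 lowest and 2 highest called genes with separated libraries were named. Other genes were given where stated or to show a contrast within a role. Replicates of a group differed beyond sampling noise (chi-square per degree of freedom 17.2 to 79.7). Alternatives were DESeq2 1.42.0, its size factors, library size only, other filters, edgeR's exact test, glmTreat, other thresholds, only the compared groups, a replicate block, each library left out, and other denominators of the share. In simulated counts for CAF-1 OFF against uninduced (12755 genes, 200 changed), 43% of 2-fold and 72% of 4-fold changes were called, and 2 unchanged genes. In the data 14.0% of the 13080 genes tested were called, a larger part than was changed in the simulation. Its recovered shares may therefore not hold for the 43 genes.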

Additional observations from a re-analysis of the deposited data

How the results depend on the processing

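No call on the 43 genes changed direction under any alternative. In CAF-1 OFF against uninduced cells the 9 calls became 1 by glmTreat, 0 at FDR 0.01 with 2-fold and 29 with no fold threshold, and 1 to 13 with a library left out. Against IPTG control the 7 calls became 1, 0 and 26 under the same settings, and 1 to 10 with a library left out. Of the 35 genes higher in CAF-1 OFF than in HOXA9 OFF, 23 passed FDR 0.01 with 2-fold. The share of all genes at these thresholds is not given here. The 42 HOXA9 OFF calls stayed at 42 or 43 with a library left out. Over all comparisons, 114 of 135 calls on single genes were kept under every scaling, filter, test and left-out library: 41 of 42 in HOXA9 OFF, 30 of 35 between the treated groups, and 1 of 9 and 1 of 7 in CAF-1 OFF (Wdr12 in both).

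Without the 10 most abundant genes of each library the share of counts was 1.24% (uninduced), 0.948% (CAF-1 OFF) and 0.359% (HOXA9 OFF). Without Ncl, an alternative added after seeing the data, it was 0.961% (uninduced), 0.942% (IPTG control), 0.699% (CAF-1 OFF) and 0.271% (HOXA9 OFF).

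With the replicate number as a block the calls were 10 in CAF-1 OFF and 42 in HOXA9 OFF against uninduced. Over all 13080 genes tested, 521 and 2948 were then called lower. Against IPTG control the block gave 8 and 42 calls, beside 478 and 2917 of all genes called lower. Between the treated groups 36 of the 43 were called, beside 2981 of all genes higher. Same-numbered libraries deviated together by a correlation of 0.30 to 0.48 between uninduced, IPTG control and HOXA9 OFF, but of -0.04 to 0.08 with CAF-1 OFF, so the numbers were not taken as pairs. The block with only the compared groups in the fit, added after seeing the data, gave 10 and 43 calls against uninduced. Of all genes, 440 of 12606 and 2941 of 12495 were called lower in these fits. With 2 libraries a group, the absence of a call in CAF-1 OFF does not show that a gene was unchanged.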
